A study of Mus musculus with 12 samples.

Results

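The core circadian clock loop was followed in mouse whole brain through its 10 genes, Arntl, Clock, Npas2, Per1, Per2, Per3, Cry1, Cry2, Csnk1d and Csnk1e. Members were the probes whose gene name in the scan files was one of these, which gave 15 probes of 55681 and 10 gene names of 36163 on the array. Of the 10 genes 6 had 1 probe and 4 had several. All 15 probes passed the filter on dim signal, as did 37182 probes in all, and 13 of the 15 were well above background on all 12 arrays. Total RNA came from whole brains of untreated BALB/c animals aged 6 or 12 weeks, either wild type or interleukin-18 knockout. Each of the 4 groups held 3 mice, with 1 one-colour array per mouse. The labels give neither the allele of the knockout nor the hour at which brains were taken. Values are the log2 of an array's processed signal minus the log2 of that array's 75th percentile, so 1 unit is a doubling relative to the rest of the same array. Levels of different probes are not on a common scale and are not compared with each other.

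In the clock, ARNTL (BMAL1) pairs with CLOCK or its relative NPAS2 and switches on the Per and Cry genes through E-box elements. The PER and CRY proteins later return to the nucleus and repress that pair, and casein kinases 1 delta and epsilon set how long PER proteins last. Because of this delay, Arntl mRNA and Per mRNA peak at opposite times of day in most tissues. A second loop, in which NR1D1 and NR1D2 repress and ROR proteins activate Arntl, and output factors such as DBP and NFIL3 extend the same rhythm to other genes. A whole brain is a mixture in which fewer cells of a type and less RNA per cell cannot be told apart.

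The Il18 probe checked the genotype labels. It lay between 1.51 and 1.92 on the wild-type arrays and between -0.32 and -0.17 on the knockout arrays. The 12 arrays lay on 2 slides scanned separately, per the file headers. Slide 1 held 8 arrays: all wild types, at either age, with 6-week knockout replicates 1 and 2. Slide 2 held the third 6-week knockout and the 3 arrays of 12-week knockouts. At 12 weeks genotype and slide therefore coincide, and the 6-week knockout group alone spans both slides. A fit with slide as a fixed block thus takes the slide difference from 6-week knockout replicate 3 alone. Its 6-week values come from the slide 1 arrays, so it is no separate check from slide 1 alone or from leaving out that replicate. Its 12-week genotype values rest on that 1 array, with larger SEs for the clock probes. A call lost there does not tell slide from genotype. Markers listed for neurons (5 of 5 with a probe), astrocytes, oligodendrocytes and microglia (6 of 6 each) were above background on all 12 arrays. None of these 23 genes was called at 6 weeks or with age. At 12 weeks 4 of 6 oligodendrocyte markers, 4 of 6 microglia markers, 4 of 6 blood markers, 2 neuron markers and 2 astrocyte markers rose in knockouts and 1 astrocyte marker fell. Over all gene names, with 1 probe each, 0.699% were called at 6 weeks and 31.7% at 12 weeks. Of 6 endothelium and pericyte markers 1 rose in knockouts at 6 weeks, and 2 rose and 1 fell at 12 weeks. Their sum ran from 23.4 to 24.3 in 6-week wild types and from 26.4 to 30.5 in 6-week knockouts. The oligodendrocyte sum ran from 335 to 347 in 6-week wild types, 281 to 361 in 6-week knockouts, 257 to 258 in 12-week wild types and 275 to 280 in 12-week knockouts. The summed level of 6 pituitary markers was under 2 on 10 arrays, 5.26 in 12-week knockout replicate 1 and 74.7 in 12-week knockout replicate 3. The summed blood markers ran from 48.2 to 63.6 in 6-week wild types and from 53.8 to 77.4 in 6-week knockouts. At 12 weeks they ran from 58.6 to 81.7 in wild types and from 87.4 to 142 in knockouts. The part of these cell types in the clock genes' values was not tested.

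The promoters show which clock elements lie next to the members. Sequences with a match are printed for Per1, Per3, Cry1 and Arntl, and for Ciart. Cry2, which also held a match, is not printed. RefSeq windows on GRCm38.p6, from 250 bases before to 50 bases after a transcription start, were found for 8 of the 10 members, in 15 windows. Per2 and Csnk1d had no window and were not searched. Both strands were searched for the E-box CACGTG, the E-prime-box CACGTT, the D-boxes TTATGTAA, TTATGCAA and TTACGTAA, the ROR elements TGGGTCA and TAGGTCA, and the cAMP response element TGACGTCA. The E-box is read by ARNTL with CLOCK, the D-box by DBP, TEF, HLF and NFIL3, and the ROR element by NR1D and ROR proteins. Per1 held an E-box beginning 166 bases and a D-box beginning 24 bases before its start. Per3 held a D-box at 205 and at 158 bases before the start. Cry1 held an E-box at 60 and an E-prime-box at 79 bases before the start. Ciart, a repressor of ARNTL and CLOCK that is named Gm129 in the scan files and is no member, held 3 E-boxes at 116, 58 and 44 bases. The second Arntl start had a ROR element beginning 30 bases downstream of it. Capitals mark the matches, the first 4 sequences are the 250 bases before the start, and the last is the 30 bases around the Arntl element (chr11:69098699-69098948, plus strand; chr4:151044666-151044915, minus strand; chr10:85185055-85185304, minus strand; chr3:95882229-95882478, minus strand; chr7:113207531-113207560, plus strand).
Per1: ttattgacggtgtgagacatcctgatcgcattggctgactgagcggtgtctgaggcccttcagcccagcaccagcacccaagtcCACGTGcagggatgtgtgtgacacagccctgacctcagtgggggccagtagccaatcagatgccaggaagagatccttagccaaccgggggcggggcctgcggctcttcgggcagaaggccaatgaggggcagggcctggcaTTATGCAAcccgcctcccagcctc
Per3: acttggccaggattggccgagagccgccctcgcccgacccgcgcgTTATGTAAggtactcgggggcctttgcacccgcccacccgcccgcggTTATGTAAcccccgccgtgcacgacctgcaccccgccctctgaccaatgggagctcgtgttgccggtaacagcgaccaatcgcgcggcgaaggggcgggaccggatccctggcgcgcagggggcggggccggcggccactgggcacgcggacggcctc
Cry1: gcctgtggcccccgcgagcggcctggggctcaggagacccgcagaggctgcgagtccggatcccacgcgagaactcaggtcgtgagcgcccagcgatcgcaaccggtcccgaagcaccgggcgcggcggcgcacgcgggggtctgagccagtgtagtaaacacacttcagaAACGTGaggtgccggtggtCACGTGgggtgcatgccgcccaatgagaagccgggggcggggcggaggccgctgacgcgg
Ciart: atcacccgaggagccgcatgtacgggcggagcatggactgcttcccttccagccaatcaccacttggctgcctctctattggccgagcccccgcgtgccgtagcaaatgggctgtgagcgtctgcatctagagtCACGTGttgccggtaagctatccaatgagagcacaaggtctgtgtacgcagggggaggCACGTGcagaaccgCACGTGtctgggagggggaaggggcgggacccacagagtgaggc
Arntl: aggcagaaagTAGGTCAgggacggaggtgc

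The E-box was in 2 of the 15 member windows, those of Per1 and Cry1, and in 7.15% of all 32851 windows. The E-prime-box was in 2 of the 15, of Cry1 and Cry2 (4.68% of all windows). The D-box was in 2, of Per1 and Per3 (1.78%), and the ROR element in 1, of Arntl (6.45%). No member window held the cAMP response element, which 1.79% of all windows did. A match is a string of letters in this window and was not tested as a binding site here.

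Arntl, the gene of the positive arm's obligate partner, separated the groups more cleanly than its replicate spread. Its probe (chr7:120457261-120457320 on mm9) read 0.85, 0.85 and 0.87 in 6-week wild types and 1.59, 1.50 and 1.52 in 6-week knockouts. At 12 weeks it read 1.34, 1.37 and 1.35 in wild types and 1.30, 1.30 and 1.26 in knockouts. The 6-week wild types were the lowest and the 6-week knockouts the highest, with no overlap between any of the 4 groups. Of all 37182 tested probes, 22.8% had no overlap between genotypes at 6 weeks and 51.9% at 12 weeks. With age these shares were 24% in wild types and 25.4% in knockouts. At 6 weeks Arntl was 1.60-fold higher in knockouts (log2 difference 0.68 ± 0.06 SE, n = 3 per group, adjusted p = 0.000395 by limma with Benjamini-Hochberg adjustment over all probes). It kept that call in the fit with a slide block (0.69, limma adjusted p = 0.00138) and on slide 1 alone (0.69, limma adjusted p = 0.0171). Both values come from the same slide 1 arrays. With slide column as a block, which sets the 6-week wild types apart from all 6-week knockouts, the value was 0.65 (limma adjusted p = 0.0374). At 12 weeks the genotypes differed by -0.07 ± 0.06 (95% interval -0.19 to 0.06, limma adjusted p = 0.382).

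With age, Arntl rose in wild types by 0.50 ± 0.06 (limma adjusted p = 0.00728), and in knockouts the difference was -0.25 ± 0.06 (limma adjusted p = 0.0579). The rise in wild types missed the threshold without 12-week wild-type replicate 2 (limma adjusted p = 0.0503) and with only the groups compared. The difference in knockouts passed it without 6-week knockout replicate 3, and its value across all settings ran from -0.27 to -0.21. Without that replicate, age and slide coincide in knockouts, and 9621 of all 37182 probes were called in this comparison. The genotype effect differed between the ages by -0.75 ± 0.08 (limma adjusted p = 0.00986), and that call was lost without 12-week wild-type replicate 2 (limma adjusted p = 0.0625), with median scaling and with the replicate block (limma adjusted p = 0.0542). Within slide 2, the single 6-week knockout read 1.52 against 1.26 to 1.30 in the 12-week knockouts.

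**Figure D1:**
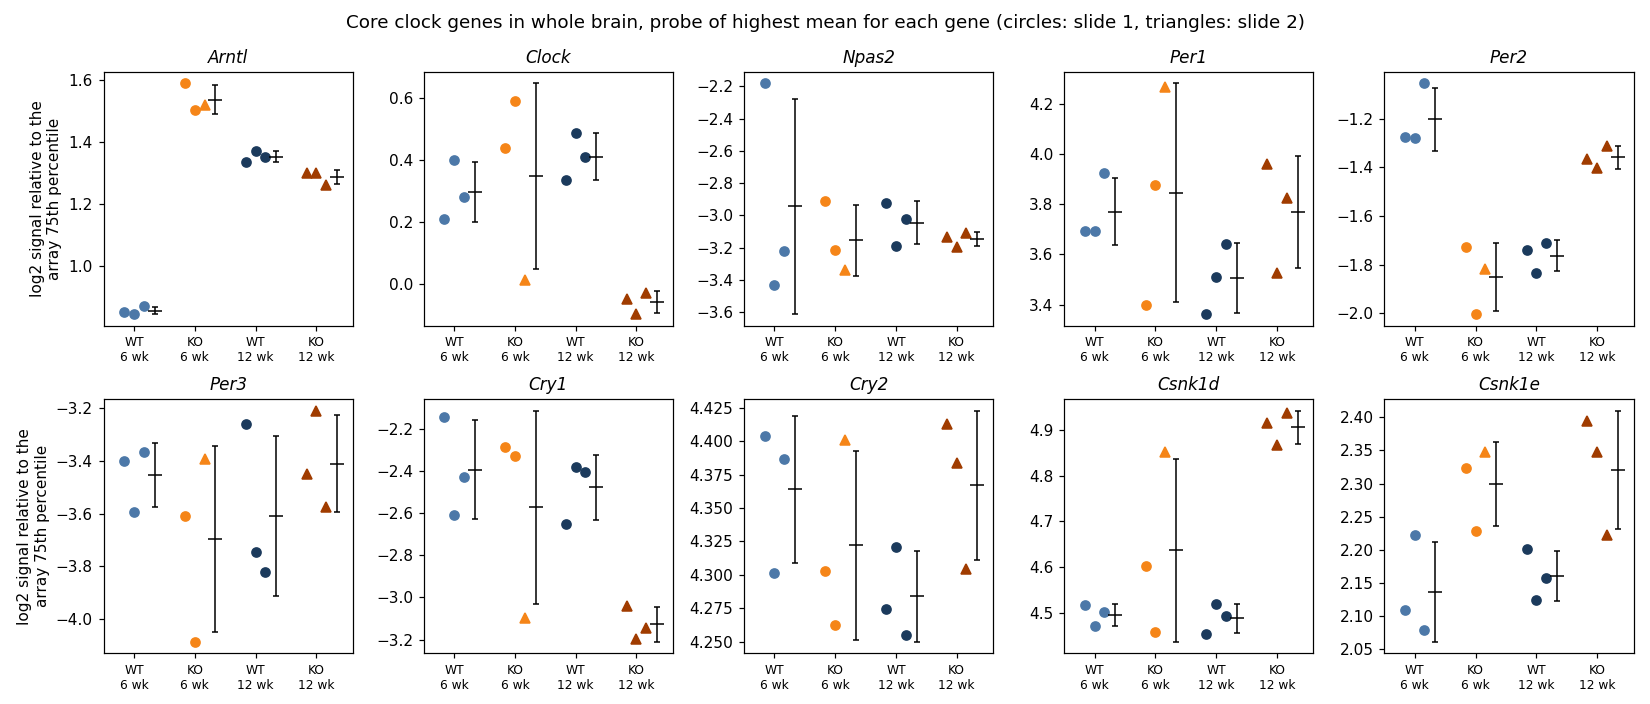
Log2 signal relative to the array 75th percentile (vertical axis) for the probe of highest mean of each of the 10 clock genes, by group (horizontal axis), with 1 point per array, circles for slide 1, triangles for slide 2, and mean with SD beside them. Arntl lies near 0.86 in 6-week wild types and near 1.54 in 6-week knockouts, and Per2 is reversed, near -1.20 and -1.85.

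Per2, a repressor of the negative arm, moved opposite to Arntl. Its probe (chr1:93313046-93313105 on mm9) read -1.28, -1.28 and -1.05 in 6-week wild types and -1.73, -2.00 and -1.82 in 6-week knockouts. At 12 weeks it read -1.74, -1.83 and -1.71 in wild types and -1.36, -1.40 and -1.31 in knockouts. The 6-week wild types were highest and lay apart from every other array, and the 6-week knockouts overlapped the 12-week wild types. At 6 weeks Per2 was 1.57-fold lower in knockouts (-0.65 ± 0.09 SE, n = 3 per group, limma adjusted p = 0.0159). The value was -0.66 with slide as a block (limma adjusted p = 0.0391), while on slide 1 alone (limma adjusted p = 0.111) and with slide column as a block (-0.62, limma adjusted p = 0.359) the call was lost, as it was with only the groups compared. At 12 weeks the direction was the other way, 0.40 ± 0.09 higher in knockouts (limma adjusted p = 0.0115). In the fit with a slide block the value was 0.36 with a wider SE of 0.16 (limma adjusted p = 0.653).

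From 6 to 12 weeks Per2 fell in wild types by 0.56 on the log2 scale (SE 0.09, limma adjusted p = 0.0345) and rose in knockouts by 0.49 ± 0.09 (limma adjusted p = 0.0448). Both age calls were close to the threshold. The call in knockouts was lost with slide as a fixed block (limma adjusted p = 0.439) or a random one (0.17) and with slide column as a block (0.0572). Leaving out 1 array kept the call in wild types in 3 of 12 cases, up to an adjusted p of 0.14, and in knockouts in 2 of 12, up to 0.178 (both limma). Their values kept their direction in every alternative fitted, -0.60 to -0.44 in wild types and 0.42 to 0.55 in knockouts. The genotype effect on Per2 differed between the ages by 1.05 ± 0.13 (limma adjusted p = 0.0212), and that call held in 5 of 12 cases with 1 array left out and was lost in the fit with a slide block. Within slide 2, the single 6-week knockout read -1.82 against -1.40 to -1.31 in the 12-week knockouts.

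**Figure D2:**
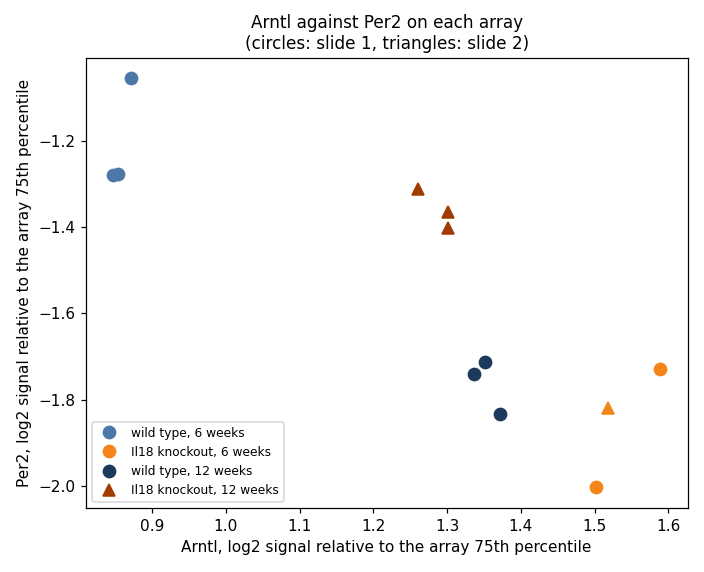
Arntl (horizontal axis) against Per2 (vertical axis), both as log2 signal relative to the array 75th percentile, with 1 point per array coloured by group and triangles for slide 2. The 6-week wild types sit at the upper left, with Arntl at 0.87 or below, and the 6-week knockouts at the lower right, with Arntl at 1.50 or above.

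Per1 and Per3, the other period genes, did not pass the test in any of the 5 comparisons. The brighter Per1 probe (chr11:68923364-68923423 on mm9) read 3.69, 3.69 and 3.93 in 6-week wild types and 3.40, 3.88 and 4.27 in 6-week knockouts. It read 3.36, 3.51 and 3.64 in 12-week wild types and 3.96, 3.52 and 3.82 in 12-week knockouts. Per1 thus varied within the 6-week knockouts over a range that covered the 6-week wild types. The genotype difference was 0.08 ± 0.20 at 6 weeks (95% interval -0.36 to 0.51, limma adjusted p = 0.864) and 0.27 ± 0.20 at 12 weeks (-0.17 to 0.70, limma adjusted p = 0.321). Per1 is also induced by neuronal activity and hormones as well as by the clock. The second, dim Per1 probe lay between -5.60 and -4.40 and was above background on 11 arrays.

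Per3 (chr4:150379256-150379315 on mm9) read -3.40, -3.59 and -3.37 in 6-week wild types and -3.61, -4.09 and -3.39 in 6-week knockouts. It read -3.26, -3.75 and -3.82 in 12-week wild types and -3.45, -3.21 and -3.57 in 12-week knockouts. All 4 groups overlapped. The genotype difference was -0.24 ± 0.19 at 6 weeks (95% interval -0.67 to 0.19, limma adjusted p = 0.517) and 0.20 ± 0.19 at 12 weeks (-0.23 to 0.63, limma adjusted p = 0.45).

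The relation of Arntl to the Per genes was summed up as Arntl minus the mean of Per1, Per2 and Per3 on each array, set to 0 at the mean of the 6-week wild types. It was 0.03, 0.09 and -0.12 in 6-week wild types and 1.08, 1.09 and 0.68 in 6-week knockouts. At 12 weeks it was 0.73, 0.91 and 0.83 in wild types and 0.43, 0.51 and 0.46 in knockouts. The group means were 0.95 ± 0.23 in 6-week knockouts, 0.82 ± 0.09 in 12-week wild types and 0.47 ± 0.04 in 12-week knockouts (SD, n = 3). The 6-week wild types stood apart from every other array, on the side of low Arntl and high Per, and the 6-week knockouts overlapped the 12-week wild types. The 12-week knockouts lay between them and the 6-week wild types. Knockouts were higher at 6 weeks by 0.95 and lower at 12 weeks by a difference of -0.36, against a pooled SD of 0.14. In a fit with a slide block, chosen after seeing the data, the difference was 1.09 at 6 weeks and 0.05 at 12 weeks, where its sign turned. For age in knockouts it was -0.48, and -0.21 with that block.

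The single Per genes did not contribute alike. With Per2 alone the groups stood at 1.33 ± 0.10 in 6-week knockouts, 1.06 ± 0.08 in 12-week wild types and 0.59 ± 0.07 in 12-week knockouts (SD, n = 3), and none of the 4 groups overlapped. With Per1 alone the 6-week knockouts spread from 0.17 to 1.11, and with Per3 alone the 12-week wild types spread from 0.29 to 0.86. Low Arntl with high Per2 is the arrangement of one phase of the day and high Arntl with low Per2 that of the opposite one, as background. The hour of collection was not given in the sources used here, so its part in the group differences was not tested, and hour and group cannot be told apart if each group was collected at its own hour.

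**Figure D3:**
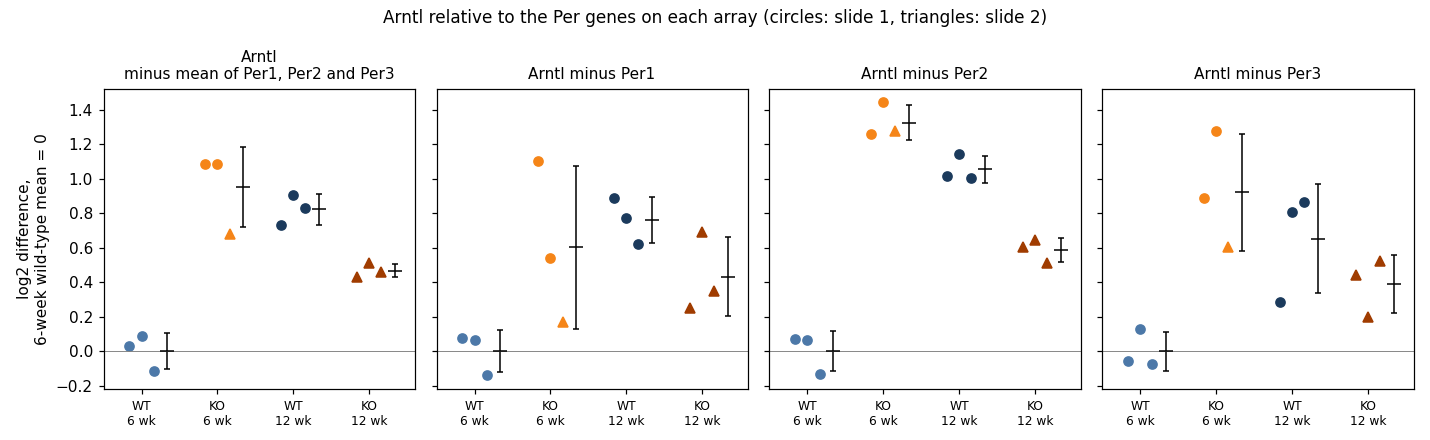
Arntl minus the mean of the 3 Per genes, and minus each of them, in log2 units with the 6-week wild-type mean set to 0 (vertical axis), by group, with 1 point per array (triangles for slide 2) and mean with SD. In the first panel the 6-week wild types lie within 0.12 of 0 and every other array lies at 0.43 or above.

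Within groups, no relation between animals was detected. Deviations of Arntl from its group mean were set against those of 5 clock genes over the 12 arrays. Pearson's r was -0.49 with Per1 (Spearman's rho -0.22), 0.45 with Per2 (0.36), 0.23 with Per3 (0.22), -0.24 with Dbp (-0.34) and -0.39 with Nr1d1 (-0.50). The exact permutation p-values within groups, two-sided, ran from 0.173 to 0.718 for r and from 0.105 to 0.622 for rho, and each p for r was 0.718 after Benjamini-Hochberg adjustment over the 5 relations. Without the 2 arrays farthest from the median of Arntl, r was 0.18 with Per1, -0.07 with Per2, 0.04 with Per3, -0.02 with Dbp and -0.67 with Nr1d1. On slide 1 alone r was -0.51, 0.69, 0.38, -0.06 and -0.36 in the same order, and slide 2 held too few arrays for a value. The within-group SD of Arntl was 0.01 to 0.05, so there was little variation to relate.

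Clock and Npas2, the alternative partners of ARNTL, did not follow it. Clock (chr5:76641377-76641436 on mm9) read 0.21, 0.40 and 0.28 in 6-week wild types and 0.44, 0.59 and 0.01 in 6-week knockouts. It read 0.34, 0.49 and 0.41 in 12-week wild types and -0.05, -0.10 and -0.03 in 12-week knockouts. The 4 arrays of slide 2 were the 4 lowest, among them 6-week knockout replicate 3. At 12 weeks Clock was lower in knockouts, by a fitted difference of -0.47 ± 0.13 (limma adjusted p = 0.0219, called in 8 of 12 cases with 1 array left out), and in the fit with a slide block the difference was 0.03 (limma adjusted p = 0.962). At 6 weeks the difference was 0.05 ± 0.13 (95% interval -0.24 to 0.34, limma adjusted p = 0.862). Npas2 (chr1:39418941-39419000 on mm9) read -2.18, -3.43 and -3.22 in 6-week wild types and between -3.34 and -2.91 on the other 9 arrays. Replicate 1 of the 6-week wild types was the highest, and Npas2 passed the test in no comparison (limma adjusted p of 0.692 at 6 weeks and 0.791 at 12 weeks).

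The cryptochromes are the stronger repressors of ARNTL and CLOCK. Cry1 (chr10:84594731-84594790 on mm9) read -2.15, -2.61 and -2.43 in 6-week wild types and -2.29, -2.33 and -3.10 in 6-week knockouts. It read -2.65, -2.38 and -2.40 in 12-week wild types and -3.04, -3.20 and -3.15 in 12-week knockouts. As with Clock, the 4 arrays of slide 2 were the 4 lowest. At 12 weeks the fitted difference was -0.65 ± 0.20 (limma adjusted p = 0.0347), with slide as a block it was 0.14 (limma adjusted p = 0.891), and the call held in 6 of 12 cases with 1 array left out. Cry2, on its brighter probe (chr2:92243807-92243866 on mm9), lay between 4.25 and 4.41 on all 12 arrays and differed by -0.04 ± 0.07 at 6 weeks (95% interval -0.19 to 0.10, limma adjusted p = 0.762) and 0.08 ± 0.07 at 12 weeks (-0.06 to 0.23, limma adjusted p = 0.347). The second Cry2 probe differed by -0.30 ± 0.12 at 12 weeks (limma adjusted p = 0.0826).

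The kinases CSNK1D and CSNK1E mark PER proteins for destruction. The brighter Csnk1d probe (chr11:120823088-120823147 on mm9) read 4.52, 4.47 and 4.50 in 6-week wild types and 4.60, 4.46 and 4.85 in 6-week knockouts. It read 4.45, 4.52 and 4.49 in 12-week wild types and 4.92, 4.87 and 4.94 in 12-week knockouts. The 4 highest values were again those of slide 2. At 12 weeks it was 1.34-fold higher in knockouts (0.42 ± 0.09, limma adjusted p = 0.0106), and in the fit with a slide block 0.10 higher (limma adjusted p = 0.844). The second Csnk1d probe differed by 0.15 ± 0.08 at 12 weeks (limma adjusted p = 0.183) and by 0.34 ± 0.08 at 6 weeks (limma adjusted p = 0.0987).

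Csnk1e had 3 probes. Probe 2 (chr15:79255355-79255414 on mm9) read 1.90, 1.62 and 1.69 in 6-week wild types and 1.74, 1.50 and 1.91 in 6-week knockouts. It read 1.73, 1.45 and 1.61 in 12-week wild types and 2.34, 2.04 and 2.33 in 12-week knockouts. The 12-week knockouts lay above all other arrays, by 0.64 ± 0.13 over 12-week wild types (1.56-fold, limma adjusted p = 0.00949). In the fit with a slide block the difference was 0.34 with a wider SE of 0.22 (limma adjusted p = 0.737). Probe 1 of the same gene differed by 0.16 ± 0.07 (limma adjusted p = 0.111) and the dim probe 3 by -0.03 ± 0.27 (limma adjusted p = 0.934), so the probes of this gene did not give a common value.

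Counted over the 15 probes, 2 were called at 6 weeks (Arntl up, Per2 down in knockouts), 13.3%, where 0.624% of all tested probes were called. At 12 weeks 5 were called, 3 up (Per2, Csnk1d and Csnk1e) and 2 down (Clock and Cry1), 33.3%, where 31.4% of all probes were called. The 12-week share is thus close to that of the whole array, and none of the 5 was called with slide as a block. That block rests on 6-week knockout replicate 3 alone and widened the SEs, for Per2 from 0.09 to 0.16. The lost calls therefore do not tell slide from genotype. With age 2 were called in wild types (Arntl up, Per2 down), where 0.438% of all probes were, and 1 in knockouts (Per2 up), where 1.02% were. The change of the genotype effect from 6 to 12 weeks was called for 2 (Arntl and Per2), where 0.102% of all probes were. Without 6-week knockout replicate 3, the only array of its group on slide 2, 6 member probes were called with age in knockouts and 6 for the difference between ages. In that setting age and slide coincide in knockouts. Of all 37182 probes, 9621 were called with age in knockouts there and 5838 for the difference between ages. The median difference of the members was -0.02 at 6 weeks and 0.15 at 12 weeks, and that of all probes 0.03 and -0.002.

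**Figure D4:**
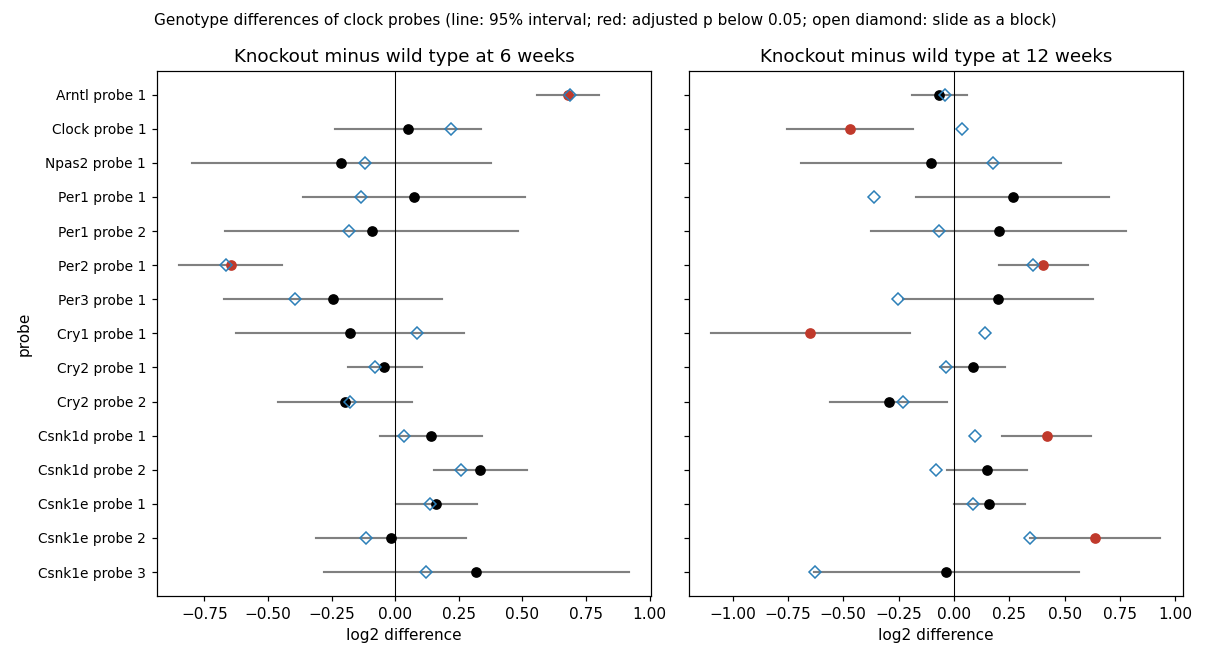
Log2 difference of knockout minus wild type (horizontal axis) for the 15 clock probes (vertical axis) at 6 weeks and at 12 weeks, with 95% intervals, red points for adjusted p below 0.05 and open diamonds for the fit with slide as a block. At 6 weeks both fits place Arntl near 0.68 and Per2 near -0.65, and at 12 weeks the block moves Clock from -0.47 to 0.03 and Cry1 from -0.65 to 0.14.

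The second loop and the output factors were read from a list of 12 genes. At 6 weeks 1 of 12 rose and 3 fell in knockouts, with a list median of -0.26 against 0.03 for all probes. Over all 26480 gene names, with 1 probe each, 0.699% were called at 6 weeks, 31.7% at 12 weeks, 0.502% with age in wild types, 1.1% with age in knockouts and 0.113% for the change of the genotype effect. Nfil3, a repressor that binds D-boxes, read 0.78, 0.76 and 0.84 in wild types and 1.44, 1.59 and 1.80 in knockouts (0.82 ± 0.10, limma adjusted p = 0.00597). Dbp, an activator at D-boxes whose mRNA is a sharp clock output, read 5.54, 5.52 and 5.51 in wild types and 4.48, 4.52 and 4.90 in knockouts (-0.89 ± 0.13, limma adjusted p = 0.0202). These opposing factors moved apart with no overlap of the 6-week groups, which 22.8% of all tested probes also showed. Gm129, the gene now named Ciart whose E-boxes are printed above, fell by 0.93 (SE 0.14, limma adjusted p = 0.0187). Nr1d2, a repressor of Arntl, fell by 0.43 (SE 0.07, limma adjusted p = 0.0224), and in the fit with a slide block its adjusted p was 0.0523. Its relative Nr1d1 differed by -0.68 ± 0.14 (limma adjusted p = 0.0652). With slide as a block 1 rose and 2 fell, and on slide 1 alone 1 rose and 1 fell.

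At 12 weeks 3 of the 12 rose in knockouts (Tef by 0.37, Dbp by 0.54 and Bhlhe41 by 0.39) and Rora fell by 0.24, with limma adjusted p from 0.00938 to 0.0403. That is 4 of 12 beside 31.7% of all genes, and none was called with slide as a block. The list's median was 0.04. With age, Dbp fell by 0.81 (SE 0.13, limma adjusted p = 0.0374) and Nfil3 rose by 0.55 ± 0.10 (limma adjusted p = 0.0469) in wild types. In knockouts Nr1d1 rose by 0.85 ± 0.14 (limma adjusted p = 0.0429), which was 1 of 12. The count was 0 with slide as a block (limma adjusted p = 0.296 for Nr1d1) and 6 without 6-week knockout replicate 3. Leaving out that array makes age and slide coincide in knockouts, and gave calls for 9621 of all 37182 probes in the same comparison. The genotype effect on Dbp differed between ages by 1.43 ± 0.19 (limma adjusted p = 0.0322). It was 1.16 with slide as a block (limma adjusted p = 0.101).

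The turnover list, 12 ubiquitin ligases, kinases and deacetylases that act on clock proteins, had no call at 6 weeks, with 1 gene at an unadjusted p under 0.05 in limma. At 12 weeks 31.7% of all genes were called, so calls in this list are not read as a result about it. The genes called in it included Csnk2b, which rose by 0.48 (limma adjusted p = 0.00967), and Sirt1, which fell by 0.44 (limma adjusted p = 0.00856). With slide as a block these values were 0.11 and -0.17 and neither was called. Of 15 listed clock-controlled outputs none was called at 6 weeks, with 8 at an unadjusted p under 0.05 in limma. The share of all genes under that unadjusted threshold is not given here, so these counts are not read as a result. At 12 weeks 2 rose (Usp54 and Mid1ip1) and 2 fell (Rev1 and Leo1), beside 31.7% of all genes called, and none was called with slide as a block. Of 12 measured genes of the suprachiasmatic nucleus, the seat of the brain's master clock, 1 rose at 6 weeks, beside 0.699% of all genes called. It was the VIP receptor gene Vipr2 (0.55 ± 0.10, limma adjusted p = 0.0352), a call lost in the fit with a slide block (0.51, limma adjusted p = 0.0898). It also rose at 12 weeks, by 0.43 ± 0.10 (limma adjusted p = 0.011), with Six3 and Cck, while Rora fell. These 4 of 12 stand beside 31.7% of all genes, and none was called with slide as a block.

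Genes that follow neuronal activity, stress hormones and temperature were read beside the clock because each can also reset or follow it. Of 18 immediate early genes, induced within minutes by neuronal activity, 8 rose at 6 weeks in knockouts and 0 fell, beside 0.699% of all genes called, with a median of 0.71. Atf3 read -3.48, -3.72 and -3.33 in 6-week wild types and -2.09, -1.86 and -1.72 in 6-week knockouts (1.62 ± 0.12, limma adjusted p = 0.000246). Fosb rose by 1.24, Arc by 0.99 and Egr2 by 1.13. In the fit with a slide block, on slide 1 alone and without 6-week knockout replicate 3, 5 of the 18 were called. These settings all take the 6-week difference from the same arrays. The rises at 6 weeks lay in the same comparison in which Arntl was higher and Per2 lower, and their part in the clock genes' values was not tested. At 12 weeks the direction was mostly the other way, with 1 rise (Egr3) and 8 falls, among them Atf3 by 0.89, Nr4a2 by 0.39, Egr2 by 0.69 and Dusp1 by 0.64. Of all genes 31.7% were called there, and none of the 18 was called with slide as a block. From 6 to 12 weeks 2 rose in wild types (Atf3 by 1.39 and Fosb by 0.68) and 8 fell in knockouts, where 1 was called with slide as a block and 12 without 6-week knockout replicate 3. With that array left out, age and slide coincide in knockouts, and 9621 of all 37182 probes were called with age there.

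Of 15 glucocorticoid-responsive genes, 2 rose at 6 weeks, beside 0.699% of all genes called, and the list's median was 0.20. The 2 were Pdk4 (0.57 ± 0.08, limma adjusted p = 0.0124) and Cdkn1a (1.10 ± 0.17, limma adjusted p = 0.0218). Both were also called with slide as a block and neither on slide 1 alone. At 12 weeks 6 rose, among them Zbtb16 by 1.20 and Mt2 by 0.70, and none fell, beside 31.7% of all genes called. With slide as a block none of the 15 was called, and Mt2 stood at 0.16. Of 9 measured temperature-responsive genes 1 rose at 6 weeks, beside 0.699% of all genes called. It was Hspa1a (0.76 ± 0.14, limma adjusted p = 0.0497), a call lost with slide as a block (0.59, limma adjusted p = 0.0707). At 12 weeks 4 rose, among them Creld2 by 0.89 and Hspa5 by 0.63, and the cold-inducible Rbm3 fell by 0.74 (limma adjusted p = 0.00831), beside 31.7% of all genes called. With slide as a block none of the 9 was called at 12 weeks.

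**Figure D5:**
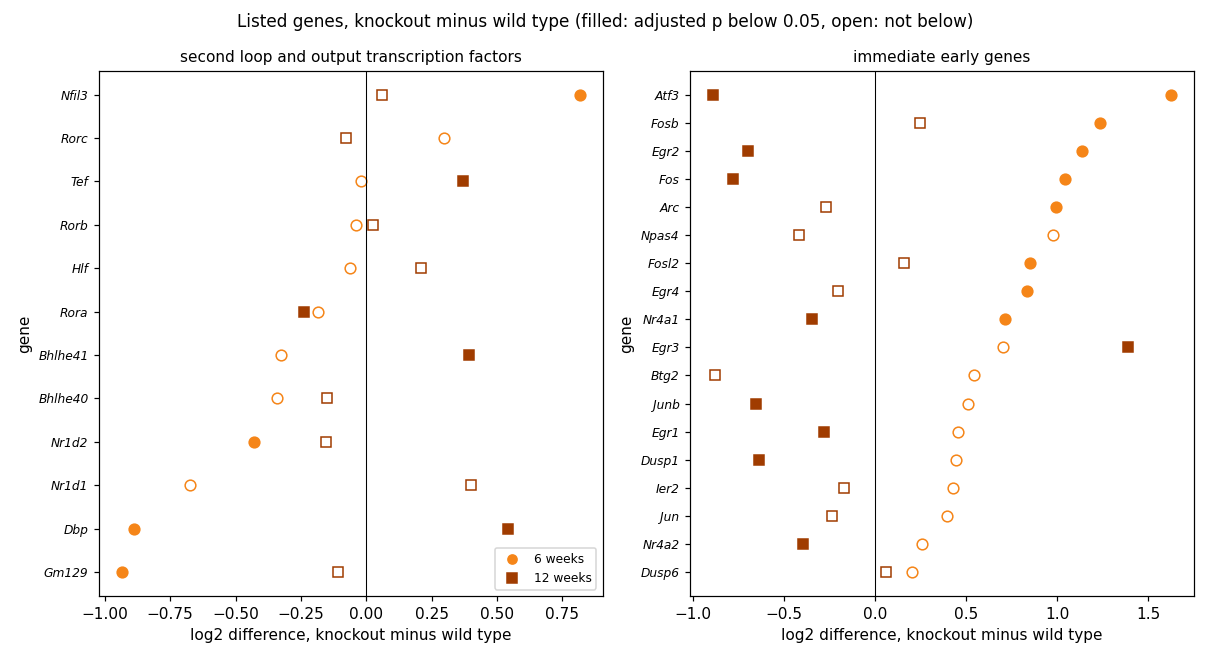
Log2 difference of knockout minus wild type (horizontal axis) for each gene (vertical axis) of the second loop list (left) and the immediate early gene list (right), with circles for 6 weeks, squares for 12 weeks, and filled symbols for an adjusted p below 0.05. At 6 weeks Nfil3 lies at 0.82 and Dbp at -0.89 on the left, and all 8 filled circles on the right lie above 0.

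The genes whose pattern over the 12 arrays was most like that of Arntl were sought as a description with no test. Of 26433 genes with a value on every array, 15132 remained after clone and accession names were left out, and these were ranked. The highest Pearson correlations were with Caprin1 (0.95), Lhfpl2 (0.95), Tmem45a (0.94), Pdk4 (0.94) and Thsd1 (0.93). Nfil3 followed directly, at rank 6 of 15132 named genes (0.93). The lowest were with Hcst (-0.91), Ctr9 (-0.87), Dnm3 (-0.87), Aatf (-0.86) and Nr1d2 (-0.86), and Dbp (-0.84) and Per2 (-0.83) stood close to that end. Per1 (-0.06), Clock (0.07) and Cry1 (-0.20) had weak correlations. All 12 arrays share groups and slides, so these correlations mostly repeat the group means. Pdk4, for example, had group means of -0.65 in 6-week wild types, -0.08 in 6-week knockouts, -0.18 in 12-week wild types and -0.21 in 12-week knockouts.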

How the data were processed

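Whole-brain total RNA of 12 BALB/c mice was hybridised to Agilent one-colour Cy3 arrays. Per the submitters' processing notes, Agilent Feature Extraction 10.7.3.1 made the scan files. Per the file headers, the authors' signal columns are intensity in arbitrary units. Other columns, per the file headers other values of 0 or 1, mark outlier spots, saturated spots and those well above background. The authors' value table of the series is an intensity too. It differed from the processed signal by at most 0.498%, so it is linear, not centred on genes, and of the same direction, with column medians from 56.8 to 82.7. Of 62976 spots per array 59305 were not controls. Between 65.9% and 76.2% of spots per array were well above background, 107 to 220 outlier spots per array were left out, and no spot was saturated. The 75th percentile was 890 to 1188 intensity units. Precision is limited by how far a signal lies above background and by 3 arrays per group.

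The log2 of the processed signal was taken minus the log2 of the array's 75th percentile over non-control spots, and spots of a probe were averaged. A probe was tested if, in 1 or more groups, all 3 arrays had it well above background. Differences come from limma 3.58.1 in R 4.3.3 (lmFit and eBayes, 1 mean per group, 12 arrays), two-sided, with Benjamini-Hochberg adjustment over all 37182 probes and calls at an adjusted p under 0.05. Replicates are biological per the labels. In simulated data of this size with 200 changed probes, the script was tested for recovery of known changes. Lists and the members' relations use the probe of highest mean per gene. All member probes are described, up to 4 called genes per list and comparison are named by smallest adjusted p, and the genes most like Arntl are the 5 highest and 5 lowest correlations. The members and lists were chosen with earlier results of these data known. Alternatives were slide or slide column as a block, slide 1 alone, a replicate block, other backgrounds, scalings, filters and variance models, and leaving out each array. Permutations used Python 3.11.15 with scipy 1.17.1. Promoter sequences are RefSeq's. A probe's exon or UTR is not given, as no annotation of mm9 was used here. One called gene of a list is not reported here.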

Additional observations from a re-analysis of the deposited data

Results flagged for a closer look

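For 8 genes among the clock members and the listed genes, limma's test found that the genotype effect differed between the ages (log2 difference at 12 weeks minus that at 6 weeks). Among the members it was -0.75 for Arntl (limma adjusted p = 0.00986) and 1.05 for Per2 (limma adjusted p = 0.0212). In the second loop list it was 1.43 for Dbp (limma adjusted p = 0.0322). Among the immediate early genes it was -2.51 for Atf3, -1.83 for Egr2, -1.06 for Nr4a1, -1.82 for Fos and -1.26 for Arc. With slide as a block the value for Atf3 was -2.68 (limma adjusted p = 0.00433), and those for Per2, Egr2, Nr4a1, Fos, Arc and Dbp missed the threshold. Without 6-week knockout replicate 3, 15 of 18 immediate early genes (down) and, in the second loop list, 5 (up) and 1 (down) of 12 were called for this difference, settings chosen after seeing the data. Of all 37182 probes, 5838 were called for it with that array left out, a setting in which age and slide coincide in knockouts. The part of the hour of collection was not tested.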

How the results depend on the processing

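The counts of called clock probes depended on the setting more than the directions of Arntl and Per2 did. Arntl at 6 weeks was called in 27 of 27 alternatives (0.65 to 0.78), and Per2 at 6 weeks in 24 of 27 (-0.71 to -0.47). Not all of these are separate checks. Slide as a fixed block, slide 1 alone and leaving out 6-week knockout replicate 3 share the same 6-week estimate. At 6 weeks the count was 1 in place of 2 on slide 1 alone, with slide column as a block and with only the groups compared. At 12 weeks it was 0 in place of 5 with slide as a fixed or random block. Clock turned to 0.034 and Cry1 to 0.14 with the fixed block, while with the random block they were -0.265 and -0.327. With age in wild types it was 1 in place of 2 on slide 1 alone, with slide column as a block, the replicate block, normexp, median scaling and no filter, and 0 with only the groups compared. With age in knockouts it was 0 in place of 1 with slide as a fixed or random block, slide column as a block, the replicate block, no filter and only the groups compared, 2 with probes above background on all 12 arrays or 1 probe per gene, 3 with trend and robust and 6 with array weights (12008 of all 37182 probes called). For the difference between ages it was 1 in place of 2 with slide as a block, the replicate block, median scaling and no filter, and 6 with array weights (6820 of all 37182 probes called). Leaving out 1 array gave 2 at 6 weeks, 3 to 5 at 12 weeks, 0 to 2 with age in wild types, 0 to 6 in knockouts and 0 to 6 for the difference between ages. The highest counts over all probes with 1 array left out were 9621 with age in knockouts and 5838 for the difference between ages. Both came without 6-week knockout replicate 3, when age and slide coincide in knockouts. The causes were not tested.

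Arntl minus the mean of the Per genes turned from -0.36 to 0.049 at 12 weeks with slide as a block, added after seeing the data, and moved from -0.48 to -0.21 for age in knockouts. It kept its sign in the other alternatives run without that block. It became 0.60 with Per1 alone and 1.33 with Per2 alone at 6 weeks (0.95), 1.06 with Per2 alone and 0.65 with Per3 alone for age in wild types (0.82), and -0.17 with Per1 alone and -0.74 with Per2 alone for age in knockouts (-0.48). With the slide block, the 12-week difference was 0.325 with Per1 alone, -0.395 with Per2 alone and 0.216 with Per3 alone. For age in knockouts these values were 0.264, -0.691 and -0.214. No alternative brought a relation of Arntl deviations under an adjusted permutation p of 0.347.

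The replicate numbers did not pair the animals, since 1 of 18 same-number pairs correlated above 0.1 (-0.20 to 0.10), and the replicate block kept the counts at 6 and 12 weeks at 2 and 5. Over all probes the calls ranged from 53 to 579 at 6 weeks (232), 33 to 16612 at 12 weeks (11693), 4 to 714 with age in wild types (163), 0 to 12008 in knockouts (381) and 14 to 6820 for the difference between ages (38). Median scaling moved the median of all probes to 0.13 at 6 weeks and 0.12 at 12 weeks and the share of rises among calls to 79.9% (55.6%) and 74.9% (51.6%). The list counts under other settings were chosen after seeing the data.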
